A study of Eisenia fetida with 15 samples.

Results

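The unigenes described here are the enzymes of glycolysis and of the tricarboxylic acid (TCA) cycle, with their close neighbours, in the compost earthworm *Eisenia fetida*. A unigene is a contig of a de novo assembly taken as the product of a gene. Members are the unigenes under 20000 bases whose matched protein name contains the name of an aldolase, enolase, triosephosphate isomerase, citrate synthase, aconitate, isocitrate, succinate, malate or glycerol-3-phosphate dehydrogenase, succinyl-CoA, or the words phosphoglycerate, pyruvate, phosphoenolpyruvate or oxoglutarate. Hexokinase, fumarase and fumarate were also searched for, but no member was assigned to these enzymes. Of 241846 unigenes, 129 carried such a name, 2 of these were longer than the limit, and 127 remained with 98 distinct matched proteins. Of the 127, 77 passed the filter on low counts and were tested, among 101090 tested unigenes in all. The searched words also catch enzymes outside both pathways, and these 30 members, 17 of them tested, are described last. In a bulk sample, fewer cells of a type and less RNA per cell cannot be told apart.

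Total RNA was taken from body sections of adult worms after a stay in soil spiked with lindane at a nominal 2.4 mg/kg. Lindane is an organochlorine insecticide acting on chloride channels of nerve cells. The code of a triplet of libraries gives soil aging and then exposure. The 30d-28d and 30d-7d triplets stand for 28 d and 7 d in spiked soil aged for 30 d, the 0d-28d and 0d-7d triplets for 28 d and 7 d in freshly spiked soil, and the control triplet has no aging or exposure time in its code, while the protocol describes an unexposed group taken at 0 d. The treatment text of the same libraries is displaced by one triplet, so that it calls the 0d-7d libraries unexposed and the control libraries 28 d in soil aged for 30 d. Both namings group the same 3 libraries. Triplets are named by code, so directions against control depend on the code being correct.

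Glycolysis breaks glucose down to pyruvate in the cytosol, and the TCA cycle oxidises the acetyl groups made from pyruvate in the mitochondrion. Between them stands the pyruvate node, where pyruvate dehydrogenase makes acetyl-CoA and pyruvate carboxylase makes oxaloacetate. Glycerol-3-phosphate dehydrogenase takes a triose phosphate out of glycolysis to make the backbone of glycerolipids and to reoxidise NADH. Muscle holds large amounts of the glycolytic enzymes, and nearly all animal cells carry the TCA cycle enzymes.

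The 15 libraries held 13182058 to 28022746 reads. Levels are given in FPKM, fragments set against the length of the unigene and the size of the library, and short unigenes received more FPKM for the same reads per kilobase than long ones, by a median factor of 2.40 up to 500 bases against 0.785 above 5000 bases. Marker lists for cell types differed widely between libraries. Muscle contractile genes took 0.323% to 2.16% of reads, globins 0.00264% to 2.03%, digestive genes 0.0518% to 6.63%, and germ cell and sperm genes 0.0220% to 0.477%. The third 0d-28d library stood apart, with the lowest globin share and the highest germ cell share. Libraries of the same triplet were no more alike than others. Over all tested unigenes the mean Spearman rho of read counts was 0.663 inside triplets and 0.681 across them.

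No member passed the test for a difference between the 5 triplets. In edgeR's quasi-likelihood F test, 0 of 77 tested members passed an adjusted p of 0.05, with a lowest adjusted p of 0.708, beside 0.000989% of all tested unigenes. At an unadjusted p under 0.05 there were 9 members, 11.7%, beside 6.07% of all tested unigenes. These 9 were the phosphoglycerate kinases contig_188298, contig_29476 and contig_25199, the pyruvate kinases contig_224109 and contig_8735, alpha-enolase contig_28998, glycerol-3-phosphate dehydrogenase contig_1774, isocitrate dehydrogenase contig_119145 and the succinyl-CoA ligase First_Contig809. Without the third 0d-28d library 5 of 81 tested members stood under 0.05, 6.17%, beside 4.41% of all. DESeq2 called 2 members over the 5 triplets, contig_1774 and contig_224109, and limma on log2(FPKM + 1) called 0, with 4 at an unadjusted p under 0.05. DESeq2 called 1042 of all tested unigenes in the same test. In the 10 comparisons between triplets and in the interaction of soil aging with exposure, edgeR and limma each called 0 members.

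**Figure D1:**
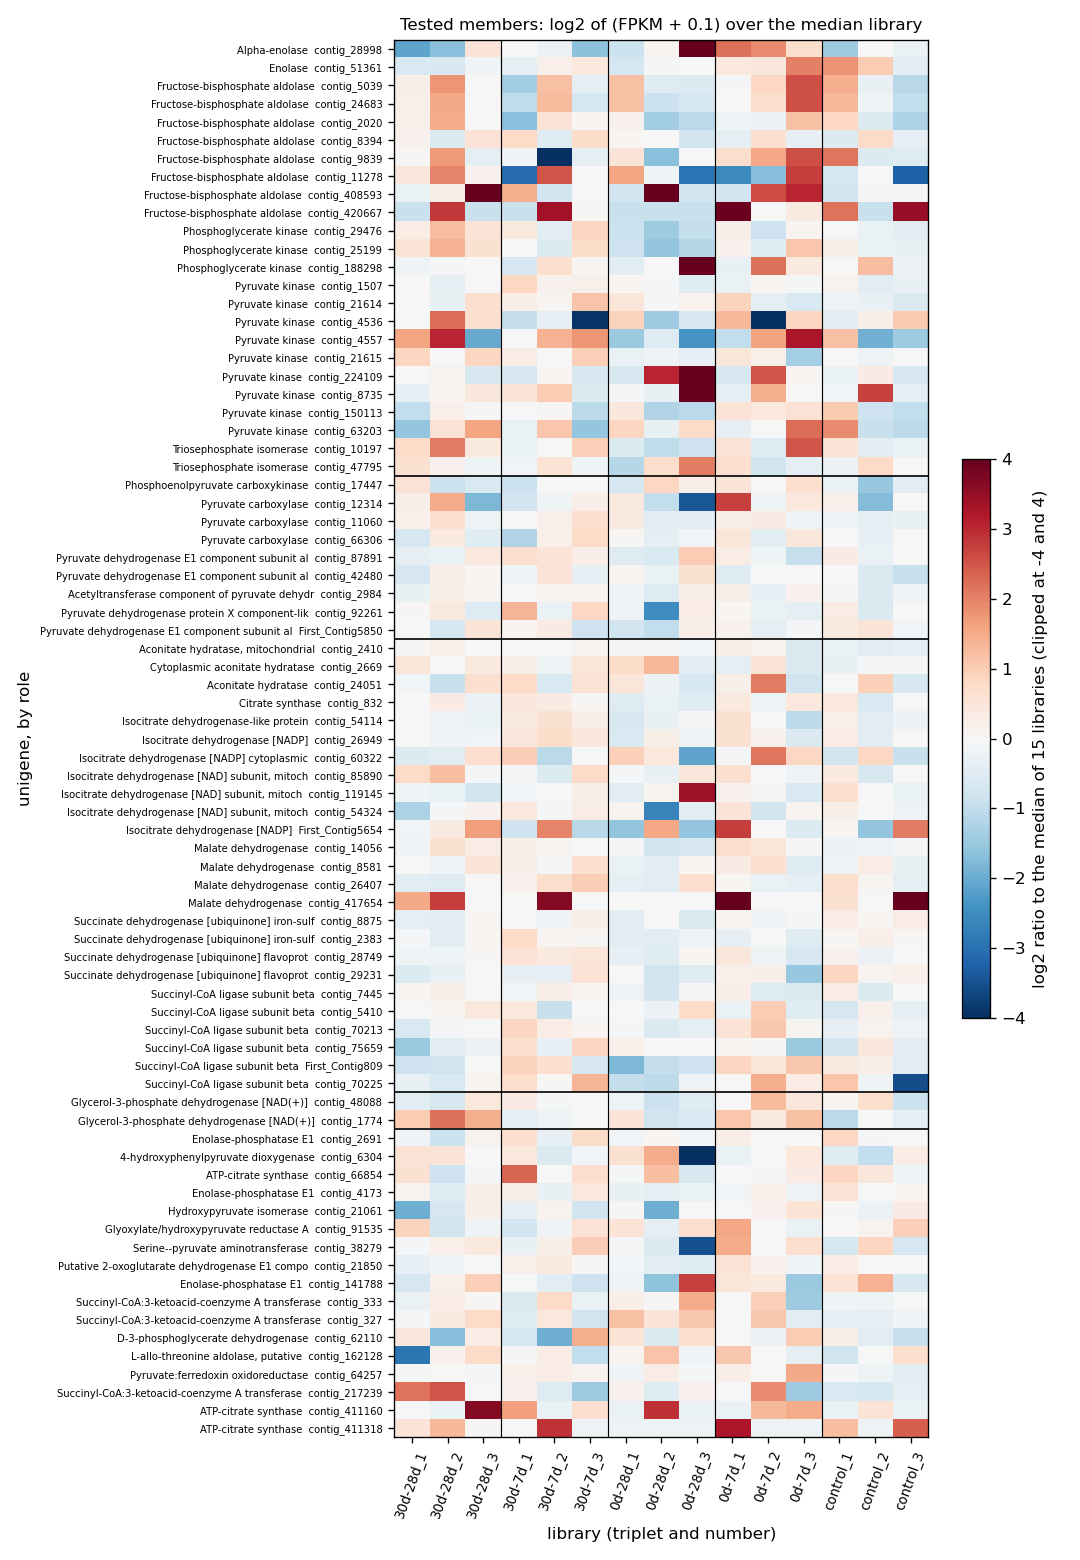
Level of each tested member in each of the 15 libraries, as the log2 ratio of FPKM + 0.1 to that of the median library, clipped at -4 and 4. Rows are unigenes grouped by role, from glycolysis at the top through the pyruvate node, the TCA cycle and glycerol-3-phosphate dehydrogenase to the other enzymes, columns are libraries in triplets, red is above and blue below the median. The glycolysis rows hold most of the dark cells, several of them in the third 0d-28d library, and the TCA cycle rows are pale apart from a few.

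The roles differed in how evenly their transcripts were held. Among unigenes with a mean of at least 5 FPKM, the coefficient of variation over the 15 libraries had a median of 88.7% for 16 glycolysis unigenes, 29.0% for 18 TCA cycle unigenes and 51.8% for 32962 unigenes of the whole table. The glycolysis set includes contig_188298 and contig_28998, which reach that mean through the third 0d-28d library. The TCA cycle set was drawn by enzyme name and includes cytoplasmic aconitate hydratase contig_2669, with a coefficient of variation of 40.6%. Over the 14 other libraries the medians were 74.3% for 14 glycolysis unigenes, 29.6% for 18 TCA cycle unigenes and 49.1% for 32689 of the whole table. The summed level of the glycolysis members was 578.3 FPKM at its lowest, in 0d-28d library 2, and 3742 FPKM at its highest, in 0d-7d library 3, a ratio of 6.47. The summed TCA cycle members ran from 623.5 to 931.0 FPKM, a ratio of 1.49. In shares of reads, glycolysis ran from 0.0848% to 0.357%, a ratio of 4.21, and the TCA cycle from 0.0739% to 0.145%, a ratio of 1.96. These are descriptions, and no test was made of the difference between roles. The libraries with the largest share of reads on glycolysis members were 30d-28d library 2 with 0.357% and 0d-7d library 3 with 0.350%. The same 2 libraries had the largest shares on the muscle contractile list, 2.16% and 1.82%. Of the 77 tested unigenes of this list, 16 had their highest level of the 15 libraries in 0d-7d library 3 and 14 their lowest. In 30d-28d library 2, 8 had their highest level and 2 their lowest. The part of muscle in the glycolysis levels was not tested.

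Fructose-bisphosphate aldolase, which splits the sugar into triose phosphates, had 11 members, 8 of them tested. The most abundant was contig_5039, 600 bases long. It had 182, 529 and 155 FPKM in the 30d-28d libraries and 59.4, 349 and 118 FPKM in 30d-7d. The 0d-28d libraries had 348, 111 and 103 FPKM, the 0d-7d libraries 150.0, 277 and 933 FPKM and the control libraries 421, 127 and 71.8 FPKM. Every triplet overlapped every other, and the single libraries 30d-28d 2, 0d-7d 3 and control 1 were the highest. contig_24683 followed it with a Spearman rho of 0.993 over 15 libraries, the nearest of 10064 named unigenes, and contig_2020 followed with 0.918. Whether these unigenes share reads was not tested, and the treatment of reads with several matches is not given in the sources used here.

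Another abundant aldolase did not follow them. contig_8394 shares its matched protein with contig_24683 and contig_2020, but its rho with them was -0.44 and -0.43 over the 15 libraries. It had 134, 79.3 and 176 FPKM in the 30d-28d libraries and 208, 82.5 and 197 FPKM in 30d-7d. Its level was 126, 119 and 70.8 FPKM in 0d-28d and 90.9, 186 and 93.6 FPKM in 0d-7d, beside 81.4, 201 and 93.6 FPKM in control. It was lowest in 0d-28d library 3 and among the lowest in 30d-28d library 2, where contig_2020 reached 477 FPKM. The aldolases contig_9839 and contig_11278 ranged from 0 to 337 FPKM and from 3.77 to 251 FPKM, each highest in 0d-7d library 3. The last 2 tested aldolases match a protein of the single-celled eukaryote *Thecamonas* and stayed under 3.1 FPKM.

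**Figure D2:**
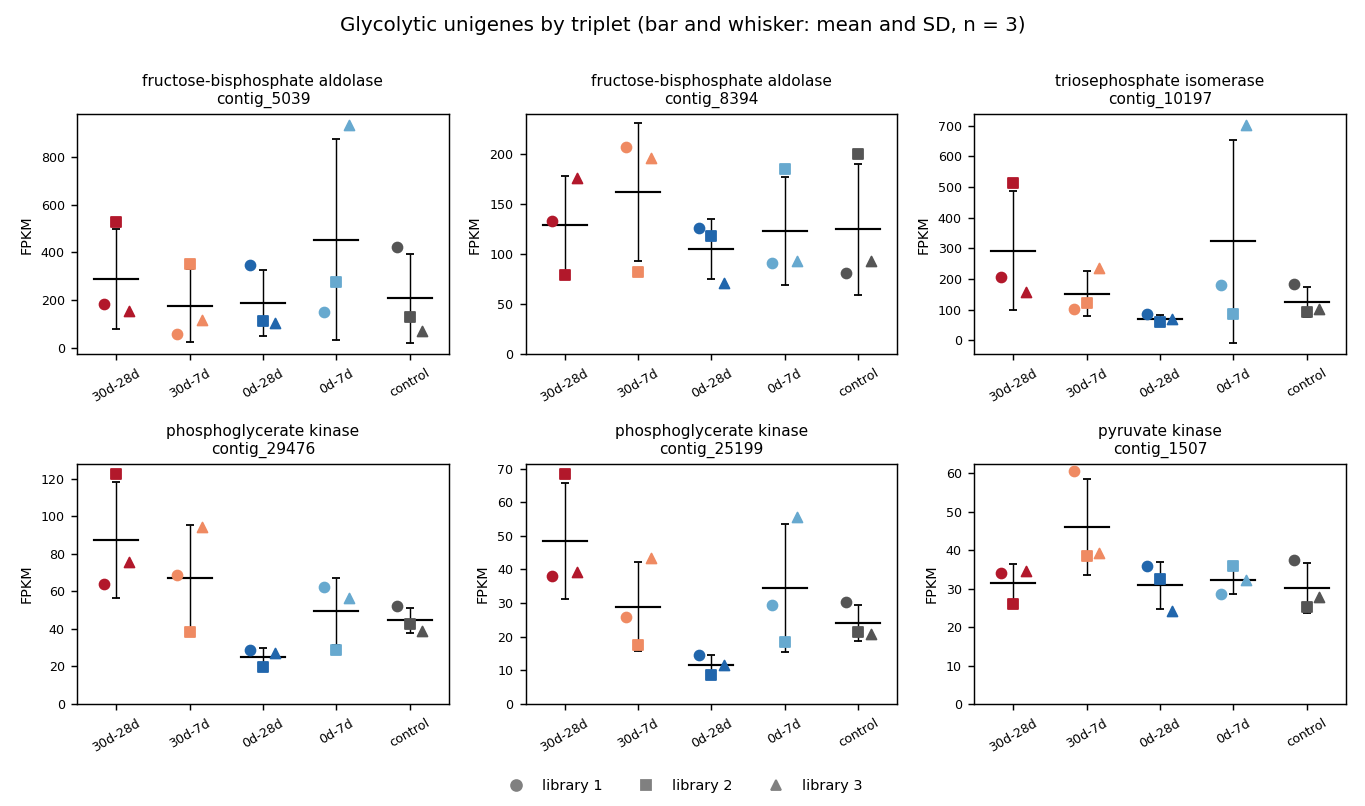
FPKM of 6 glycolytic unigenes in the 5 triplets, with circles, squares and triangles for libraries 1, 2 and 3, a bar for the mean and a whisker for the SD (n = 3). The 0d-28d libraries are the lowest for both phosphoglycerate kinases and for triosephosphate isomerase, while aldolase contig_5039 overlaps in every triplet.

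Triosephosphate isomerase interconverts the triose phosphates. contig_10197 had 205, 515 and 159 FPKM in the 30d-28d libraries and 101, 122 and 235 FPKM in 30d-7d. Its level was 84.0, 59.7 and 68.0 FPKM in 0d-28d and 180.2, 84.8 and 702 FPKM in 0d-7d, beside 182, 91.5 and 101 FPKM in control. The 0d-28d libraries were all below the 12 others, though the highest of them stood just under the lowest of the rest, and 0d-7d library 3 was the highest. Its log2 change was 1.997 ± 0.736 (SE) for 30d-28d over 0d-28d, with an unadjusted p of 0.0184 and an adjusted p of 0.775 in edgeR. The named unigene most like it over the 15 libraries was Actin-1 (contig_1116, rho 0.964), and lombricine kinase (contig_2643), the phosphagen kinase of earthworm muscle, came next with 0.95.

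Phosphoglycerate kinase, which makes the first ATP of glycolysis, gave the lowest unadjusted p of the members for 30d-28d over 0d-28d. contig_29476 had 64.0, 123 and 75.5 FPKM in the 30d-28d libraries and 68.7, 38.5 and 94.3 FPKM in 30d-7d. In fresh soil it had 28.5, 19.4 and 27.0 FPKM for 0d-28d and 62.3, 28.9 and 56.6 FPKM for 0d-7d, against 51.9, 42.7 and 38.8 FPKM in control. The 0d-28d libraries lay below all 12 others, again narrowly. Its log2 change for 30d-28d over 0d-28d was 1.81 ± 0.416 (SE), with an unadjusted p of 0.00085 and an adjusted p of 0.775 in edgeR. DESeq2 gave it an adjusted p of 0.0038. Without the third 0d-28d library the edgeR change was 1.95 ± 0.485 (SE).

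The longer phosphoglycerate kinase contig_25199 was likewise lowest in 0d-28d and highest in 30d-28d by the mean. It had 37.9, 68.3 and 39.2 FPKM in the 30d-28d libraries and 25.8, 17.6 and 43.4 FPKM in 30d-7d. In fresh soil it had 14.5, 8.68 and 11.7 FPKM for 0d-28d and 29.4, 18.5 and 55.7 FPKM for 0d-7d, against 30.3, 21.4 and 20.8 FPKM in control. Its log2 change for 30d-28d over 0d-28d was 1.97 ± 0.496 (SE), with an adjusted p of 0.775 in edgeR and 0.0189 in DESeq2. In FPKM, 4 of 77 members had all 0d-28d libraries below the 12 others, beside 0.344% of all tested unigenes. These were both phosphoglycerate kinases, triosephosphate isomerase and First_Contig809. With reads scaled by TMM in place of FPKM only contig_25199 kept that place. The muscle contractile list took 0.784% to 2.16% of reads in 30d-28d, 0.365% to 0.598% in 0d-28d and 0.323% to 0.676% in control, and its part in these levels was not tested.

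Pyruvate kinase, the last step of glycolysis, had 13 members and 9 tested. The most abundant, contig_1507, had 34.2, 25.9 and 34.6 FPKM in the 30d-28d libraries and 60.6, 38.6 and 39.3 FPKM in 30d-7d. The 0d-28d libraries had 35.9, 32.4 and 24.1 FPKM, the 0d-7d libraries 28.6, 35.8 and 32.4 FPKM and the control libraries 37.5, 25.2 and 27.9 FPKM. All 3 values of 30d-7d stood above the 12 others in FPKM, by a narrow margin, as for 0.151% of all tested unigenes, and did not with TMM-scaled reads. The pyruvate kinases contig_4536 and contig_4557 share a matched protein and swung separately, from 0.242 to 50.3 FPKM and from 1.06 to 56.9 FPKM. In 0d-7d library 2 contig_4536 had 0.242 FPKM and contig_4557 had 18.0 FPKM, while in control library 3 they had 22.0 and 2.05 FPKM. Their sum ran from 7.80 to 98.9 FPKM and was highest in 30d-28d library 2. Allelic or assembly variants of a gene and separate genes cannot be told apart with this table.

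Enolase, the step before pyruvate kinase, had 8 members, and the 2 that were tested were low in most libraries. The unigene contig_51361 stood at no more than 0.796 FPKM, with 0.0460, 0.0430 and 0.0980 FPKM in the 30d-28d libraries and 0.0710, 0.154 and 0.196 FPKM in 30d-7d. Its level was 0.0360, 0.113 and 0.123 FPKM in 0d-28d and 0.199, 0.208 and 0.796 FPKM in 0d-7d, beside 0.678, 0.347 and 0.0650 FPKM in control. The 30d-28d libraries lay below those of 0d-7d and overlapped with control. Its log2 change for 30d-28d over 0d-7d was -2.50 ± 0.911 (SE), with an adjusted p of 0.885 in edgeR.

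A separate set of enzyme transcripts was present at high level in the third 0d-28d library and nearly nowhere else. Phosphoglycerate kinase contig_188298 had 98.3 FPKM from 9735 reads there, against at most 0.73 FPKM in each of the 14 others. Alpha-enolase contig_28998, which makes phosphoenolpyruvate, had 94.4 FPKM there and at most 1.88 FPKM elsewhere. Pyruvate kinase contig_224109 had 47.9 FPKM there and at most 1.19 FPKM elsewhere, the higher of these in 0d-28d library 2. A further pyruvate kinase, contig_8735, had 16.2 FPKM there and at most 1.04 FPKM elsewhere. So 4 of 77 members were at least 10 times higher in that library than in any other, beside 0.783% of all tested unigenes.

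A tested TCA cycle enzyme was less sharp. Isocitrate dehydrogenase [NAD] contig_119145 had 31.2 FPKM in that library and 1.67 to 4.66 FPKM in the others. Of the untested members, glycerol-3-phosphate dehydrogenase contig_453106 had 18.9 FPKM there and at most 0.149 FPKM elsewhere, and putative malate dehydrogenase contig_402293 had 11.98 FPKM there and at most 0.518 FPKM elsewhere. These 7 were named after their values were seen, apart from contig_188298, contig_28998 and contig_224109. Glyceraldehyde-3-phosphate dehydrogenase contig_371067, which is no member and stands one step above phosphoglycerate kinase, had 284.4 FPKM there and at most 3.39 FPKM elsewhere.

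Of these 7, contig_188298, contig_224109, contig_119145 and contig_453106 each have a tested partner with the same matched protein, and the partners showed no such peak. contig_25199, partner of contig_188298, had 11.7 FPKM in the third 0d-28d library. contig_1507, partner of contig_224109, had 24.1 FPKM there and contig_54324, partner of contig_119145, had 0.912 FPKM. In that library the library-specific member of each of these pairs was the higher, while for the kinases the partner was the higher in all 14 others. The summed phosphoglycerate kinase pair thus ran from 8.76 to 109.9 FPKM.

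**Figure D3:**
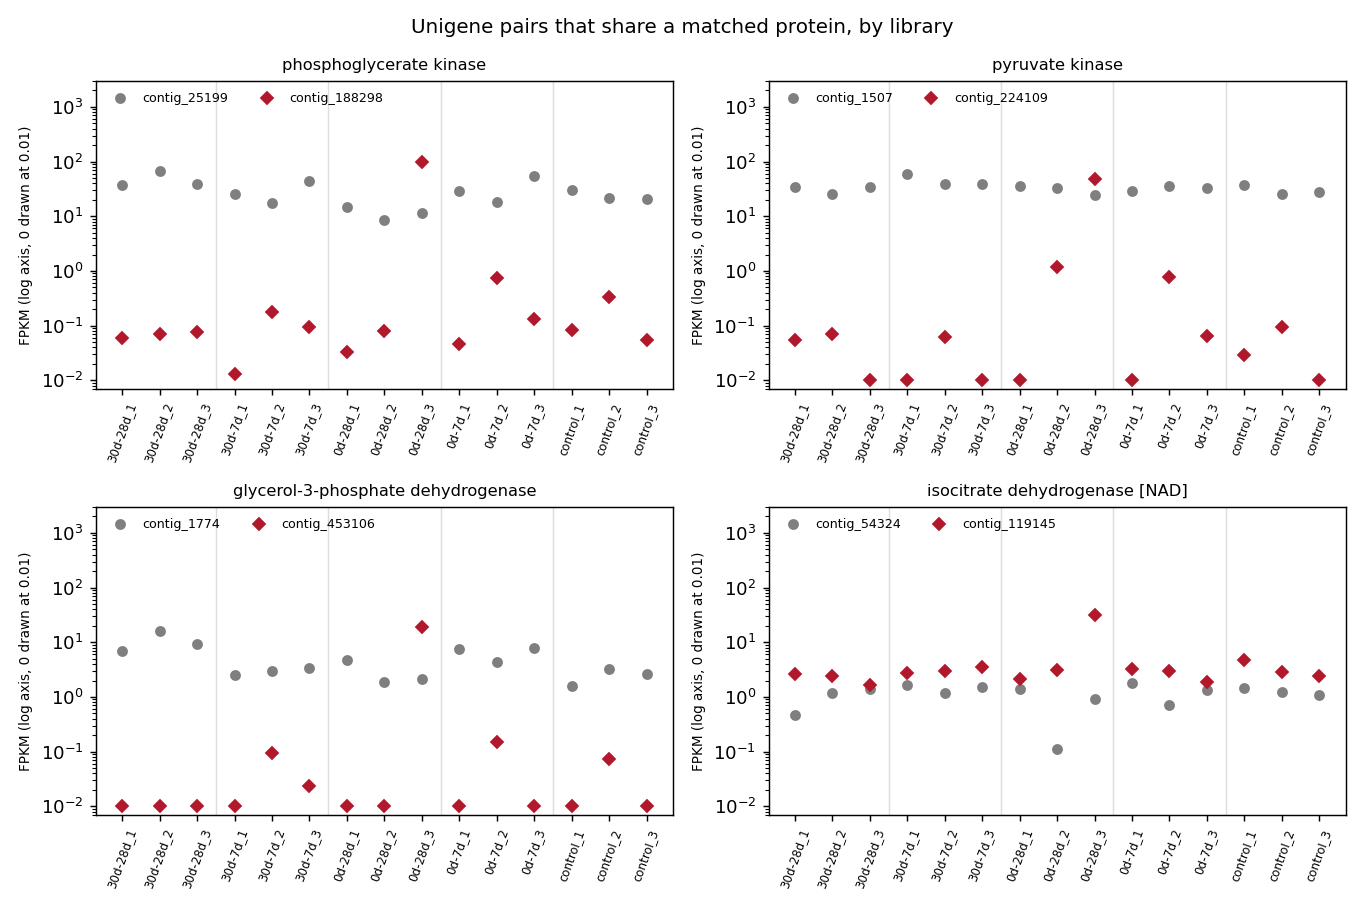
FPKM of 4 pairs of unigenes that share a matched protein, in each of the 15 libraries on a log axis, with values under 0.01 drawn at 0.01. Red diamonds rise in 0d-28d library 3 to 98.3, 47.9, 18.9 and 31.2 FPKM, and grey circles, the partners, do not.

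The edgeR values of these unigenes rest on that library. For 0d-28d over control, the log2 change of contig_188298 was 7.94 ± 2.56 (SE) with all libraries and -1.38 ± 1.31 without it. For contig_28998 it was 7.41 ± 2.41 with all libraries and 0.31 ± 1.42 without it. For contig_224109 it was 8.76 ± 2.70 with all libraries and 3.82 ± 2.21 without it, and the DESeq2 call of that unigene used all libraries. All adjusted p-values in edgeR were at least 0.591 with the library and 0.791 without it. In the same library 25 of 47 tested germ cell and sperm markers had their highest level of the 15 libraries, 2 of the 47 stood at 0, and 20 of 22 globins had their lowest level, 5 of them at 0. The germ cell share was 0.477% there and at most 0.0722% elsewhere, and its part in these levels was not tested.

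Glycerol-3-phosphate dehydrogenase contig_1774, 2695 bases long, had the lowest unadjusted p of the members in 4 of the 10 comparisons. It had 6.97, 15.9 and 9.31 FPKM in the 30d-28d libraries and 2.53, 2.94 and 3.36 FPKM in 30d-7d. The 0d-28d libraries had 4.83, 1.90 and 2.17 FPKM, the 0d-7d libraries 7.44, 4.41 and 7.71 FPKM and the control libraries 1.57, 3.29 and 2.59 FPKM. The 30d-28d libraries lay above all of 30d-7d, 0d-28d and control, and overlapped with 0d-7d, whose libraries lay above control and 30d-7d. The 30d-7d, 0d-28d and control triplets overlapped. The log2 change over control was 2.09 ± 0.468 (SE) in 30d-28d, 0.23 ± 0.451 in 30d-7d, 0.27 ± 0.451 in 0d-28d and 1.34 ± 0.458 in 0d-7d. The unadjusted p was 0.000707 for 30d-28d, and the adjusted p was 1.0 in edgeR and 0.00433 in DESeq2. Leaving out 1 library at a time, the 30d-28d change stayed between 1.68 and 2.38.

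The triplets of contig_1774 crossed with soil aging and exposure. At 28 d, aged soil stood above fresh soil by a log2 change of 1.82 ± 0.464 (SE), and at 7 d aged soil stood below fresh soil by -1.11 ± 0.456. The difference between these, the interaction of soil aging with exposure, was 2.93 ± 0.650, with an unadjusted p of 0.00065 and an adjusted p of 0.868 in edgeR and 0.0045 in DESeq2. This reading needs the codes, since the treatment text gives these conditions to other triplets. The interaction was an added test, chosen after the data were seen, so its p-values are descriptive. The second tested unigene of this enzyme, contig_48088, had 9.22, 7.59 and 16.3 FPKM in the 30d-28d libraries and 15.3, 11.9 and 12.3 FPKM in 30d-7d. In fresh soil it had 10.7, 6.76 and 8.57 FPKM for 0d-28d and 12.3, 29.8 and 16.7 FPKM for 0d-7d, against 13.3, 19.4 and 6.77 FPKM in control. It overlapped between 30d-28d and control. When contig_1774 was summed with contig_453106, which shares its match, the change of 0d-28d over control became 1.91 ± 0.701 (SE), with 18.9 FPKM of contig_453106 in the third 0d-28d library.

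The pyruvate node held 9 tested members of 11. Pyruvate carboxylase contig_12314 had 21.5, 51.8 and 5.16 FPKM in the 30d-28d libraries and 10.7, 16.3 and 22.0 FPKM in 30d-7d. The 0d-28d libraries had 23.9, 9.14 and 1.63 FPKM, the 0d-7d libraries 122, 15.9 and 24.9 FPKM and the control libraries 21.3, 5.51 and 18.4 FPKM. No pair of triplets separated, and 0d-7d library 1 was the highest. The other abundant pyruvate carboxylase, contig_11060, ranged only from 6.09 to 13.5 FPKM. Pyruvate dehydrogenase E1 alpha contig_87891 averaged 17.1 ± 5.51 FPKM in 30d-28d, 25.0 ± 3.71 in 30d-7d, 19.7 ± 13.7 in the 0d-28d triplet, 15.4 ± 6.20 in 0d-7d and 18.1 ± 3.92 in control (SD, n = 3 each). Phosphoenolpyruvate carboxykinase contig_17447 stood at no more than 0.582 FPKM in any library. None of the 9 had an unadjusted p under 0.05 in any of the 10 comparisons.

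The TCA cycle enzymes varied less over the libraries than those of glycolysis. The iron-sulfur subunit of succinate dehydrogenase, contig_8875, was the most abundant of them, at 402 bases a short unigene whose FPKM runs high for its reads. It had 199, 191 and 279 FPKM in the 30d-28d libraries and 267, 240.1 and 311 FPKM in 30d-7d. Its level was 197, 263 and 177 FPKM in 0d-28d and 281, 241 and 247 FPKM in 0d-7d, beside 323, 278 and 320.3 FPKM in control. The control libraries lay above 0d-28d and overlapped with the other lindane triplets, and with TMM-scaled reads they lay above all 12 others. Its log2 change over control was -0.88 ± 0.308 (SE) in 0d-28d and -0.75 ± 0.308 in 30d-28d, with adjusted p-values of 0.591 and 1.0 in edgeR. For 30d-7d over control it was -0.59 ± 0.307, the lowest unadjusted p of the members there, 0.0779. The other iron-sulfur unigene, contig_2383, shares its match and was highest in 30d-7d library 1.

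Citrate synthase, which starts the cycle, was represented by contig_832 alone. It had 50.1, 63.2 and 42.4 FPKM in the 30d-28d libraries and 68.5, 63.6 and 51.9 FPKM in 30d-7d. In fresh soil it had 35.1, 41.9 and 35.2 FPKM for 0d-28d and 66.1, 44.6 and 67.3 FPKM for 0d-7d, against 67.5, 32.9 and 50.2 FPKM in control. The 0d-28d libraries lay below those of the other lindane triplets but not below control library 2. Mitochondrial aconitase contig_2410, which makes isocitrate, had the smallest coefficient of variation of the members with at least 5 FPKM, 16.1%, at percentile 1.11 of all such unigenes. It had 26.5, 29.9 and 26.1 FPKM in the 30d-28d libraries and 25.7, 25.5 and 27.9 FPKM in 30d-7d. The 0d-28d libraries had 25.1, 26.4 and 23.6 FPKM, the 0d-7d libraries 31.0, 28.2 and 17.3 FPKM and the control libraries 21.2, 18.8 and 19.8 FPKM. The 30d-28d, 30d-7d and 0d-28d triplets each lay above control, and 0d-7d did not.

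**Figure D4:**
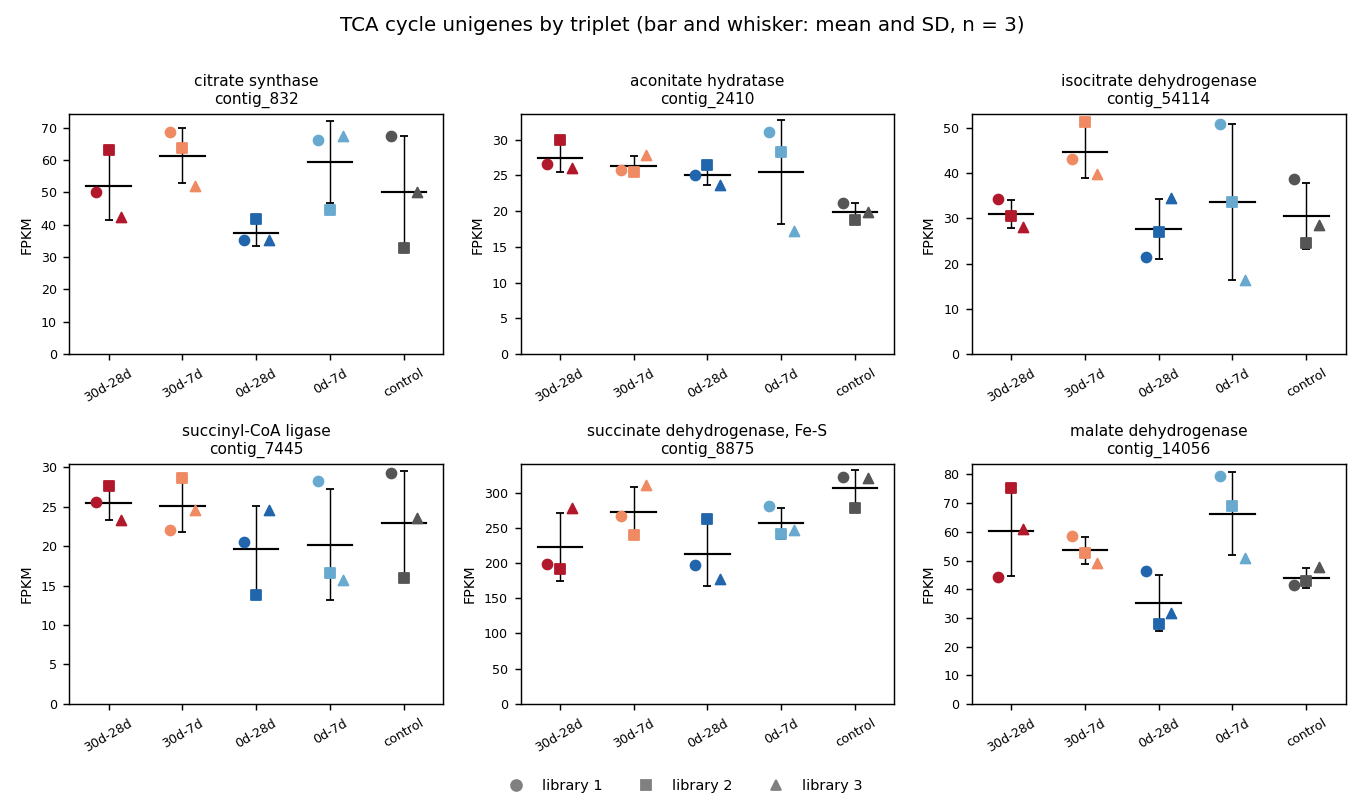
FPKM of 6 TCA cycle unigenes in the 5 triplets, with circles, squares and triangles for libraries 1, 2 and 3, a bar for the mean and a whisker for the SD (n = 3). Aconitase stays between 17.3 and 31.0 FPKM in the 15 libraries, and the succinate dehydrogenase subunit is lower in every 0d-28d library than in control.

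Further round the cycle, isocitrate dehydrogenase-like contig_54114 averaged 31.0 ± 3.08 FPKM in 30d-28d, 44.8 ± 5.85 in 30d-7d, 27.6 ± 6.56 in the 0d-28d triplet, 33.6 ± 17.2 in 0d-7d and 30.6 ± 7.29 in control (SD, n = 3 each). Succinyl-CoA ligase contig_7445, the step that makes a nucleoside triphosphate directly, ranged from 13.8 to 29.2 FPKM and overlapped between all pairs of triplets. A low succinyl-CoA ligase, First_Contig809, had 0.724, 1.37 and 1.498 FPKM in the 0d-28d libraries, against 5.07, 3.89 and 5.96 in 0d-7d, and gave the lowest unadjusted p of the members in that comparison. Its log2 change there was -1.85 ± 0.494 (SE), with an adjusted p of 0.528 in edgeR and 0.0247 in DESeq2. Malate dehydrogenase contig_14056, which closes the cycle, had 46.4, 28.0 and 31.6 FPKM in 0d-28d, 79.4, 68.9 and 50.8 in 0d-7d and 41.4, 42.8 and 47.9 in control. The 0d-28d libraries all lay below those of 0d-7d, by a log2 change of -0.67 ± 0.307 (SE), and the adjusted p was 0.55 in edgeR.

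Among the enzymes that the searched words catch outside both pathways, enolase-phosphatase of the methionine salvage pathway was the most abundant. contig_2691 averaged 33.2 ± 11 FPKM in 30d-28d, 52.5 ± 19.0 in 30d-7d, 37.7 ± 2.58 in the 0d-28d triplet, 41.8 ± 4.53 in 0d-7d and 48.3 ± 18.3 in control (SD, n = 3 each). 4-hydroxyphenylpyruvate dioxygenase contig_6304, of tyrosine breakdown, had 1.30 FPKM in the third 0d-28d library and 18.6 to 104.2 FPKM in the 14 others. Serine-pyruvate aminotransferase contig_38279 was also lowest there, at 0.418 FPKM, against 3.51 to 16.2 FPKM elsewhere. The named ketone body enzyme contig_327, a succinyl-CoA:3-ketoacid-coenzyme A transferase, had a log2 change of 1.25 ± 0.490 (SE) for 0d-28d over control, with an adjusted p of 0.591 in edgeR. These last 3 were chosen after their values were seen.

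The comparisons with control ask what lindane soil did, together with time in the soil and soil aging, which the design cannot separate from it. None of the 4 had a member past the threshold in edgeR, beside 0.000989% of all tested unigenes in each. For 30d-28d, 41 of 77 members were above control with a median log2 change of 0.04. Of the 77, 6 had an unadjusted p under 0.05, 7.79%, beside 4.31% of all. Without the second 30d-28d library it was 1 of 80, 1.25% beside 3.38% of all. Without the second control library it was 3 of 80, 3.75% beside 5.04%, and without the third 2 of 79, 2.53% beside 3.65%. For 30d-7d, 52 of 77 were above control with a median of 0.13, and 0 had an unadjusted p under 0.05 in edgeR, beside 3.5% of all, while DESeq2 called 0 and limma 0. For 0d-28d, 34 of 77 were above control with a median of -0.14. Of the 77, 9 had an unadjusted p under 0.05, 11.7%, beside 8.35% of all. Without the first control library it was 6 of 80, 7.5% beside 5.45%, and without the third 0d-28d library 6 of 81, 7.41% beside 5.78%. For 0d-7d, 55 of 77 were above control with a median of 0.28. Of the 77, 2 had an unadjusted p under 0.05, 2.6%, beside 4.74% of all. Without the third control library it was 1 of 79, 1.27% beside 3.82%. The medians over all tested unigenes lay between -0.04 and 0.00 in these comparisons, and without 1 library the member medians ranged from -0.01 to 0.19 for 30d-28d, from 0.08 to 0.23 for 30d-7d, from -0.24 to 0.14 for 0d-28d and from 0.16 to 0.30 for 0d-7d.

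By triplets that do not overlap in FPKM, 10 members parted 30d-28d from control, 13%, beside 9.29% of all tested unigenes. For 30d-7d it was 11, 14.3% beside 7.32%, and all 11 were higher in 30d-7d, beside 4.23% of all. These 11 included the TCA cycle enzymes contig_2410, contig_14056, contig_54114, contig_26949 and contig_28749, and the pyruvate kinases contig_1507, contig_21614 and contig_21615. For 0d-28d it was 13, 16.9% beside 10.8%. For 0d-7d it was 7, 9.09% beside 8.49%. Separation of pairs of triplets was counted in FPKM alone. In edgeR, on TMM-scaled reads, 0 of 77 members had an unadjusted p under 0.05 for 30d-7d over control. The first 30d-7d library had the highest summed TCA cycle level, 931.0 FPKM, but 0.103% of reads, beside a median of 0.112% over the 15 libraries.

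Fresh and aged soil were compared at each exposure time. At 28 d, 47 of 77 members were higher in 30d-28d than in 0d-28d with a median log2 change of 0.17, and 11 had an unadjusted p under 0.05, 14.3%, beside 6.29% of all, with 0.0% of all past the adjusted threshold. Of those 11, 5 were lower in 30d-28d, and each of these 5 was highest in the third 0d-28d library. Without that library 4 of 81 members stood under 0.05, 4.94%, beside 3.7% of all. DESeq2 called 4 members in this comparison, beside 531 of all 101090 tested unigenes. The 4 were contig_29476, contig_25199, contig_224109 and contig_1774. At 7 d, 29 of 77 members were higher in 30d-7d than in 0d-7d with a median of -0.25. At an unadjusted p under 0.05 there was 1, 1.3%, beside 4.21% of all, with 0.0% of all past the adjusted threshold. When 1 library was left out it was 0 to 5, 0.0% to 6.17%, beside 3.4% to 5.1% of all. By triplets that do not overlap, 10 members parted the soils at 28 d, beside 9.31% of all, and 8 at 7 d, beside 8.38% of all. Without 1 library the member median lay between 0.04 and 0.30 at 28 d and between -0.34 and -0.07 at 7 d. At 7 d the 24 glycolysis members had a median of -0.88, which became -0.13 without the third 0d-7d library and -1.37 without the second 30d-7d library, and the 25 TCA cycle members had one of 0.06, which became -0.13 without the third 0d-7d library.

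Longer and shorter exposure were compared in each soil. In fresh soil, 28 of 77 members were higher in 0d-28d than in 0d-7d with a median log2 change of -0.22, and 12 had an unadjusted p under 0.05, 15.6%, beside 9.09% of all and 0.0% past the adjusted threshold. Without the third 0d-28d library that count was 5 of 81, 6.17%, beside 5.94% of all. Leaving out the third 0d-7d library gave 7 of 81, 8.64% beside 5.69%, and leaving out the second gave 20 of 81, 24.7% beside 9.73%. The median became -0.0071 without the first 0d-7d library and -0.44 without the third 0d-28d library. By triplets that do not overlap, 14 members parted these triplets, 18.2% beside 11.1% of all, and all 14 were lower in 0d-28d, beside 6.27% of all. In aged soil, 40 of 77 members were higher in 30d-28d than in 30d-7d with a median of 0.04, and 2 had an unadjusted p under 0.05, beside 3.09% of all and 0.0% past the adjusted threshold. Here 11 members did not overlap, beside 8.02% of all. Without 1 library the member median lay between -0.17 and 0.32. The count under 0.05 then lay between 1 and 4, 1.25% to 5.0%, beside 2.46% to 3.39% of all. In this soil the glycolysis members had a median of 0.60. It became 0.14 without the second 30d-28d library and stayed positive without each of the others. The TCA cycle members had a median of -0.16, which became -0.02 without the first 30d-28d library and -0.29 without the third.

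The last pairs of triplets differ in both conditions by code. By the treatment text, 30d-7d over 0d-28d would be 28 d over 7 d in fresh soil, and 30d-28d over 0d-7d would be 7 d in aged soil over unexposed worms. For 30d-7d over 0d-28d, 48 of 77 members were higher with a median of 0.25, and 10 had an unadjusted p under 0.05, beside 6.28% of all and 0.0% past the adjusted threshold. Without the third 0d-28d library that count was 4 of 81, 4.94%, beside 4.34% of all. Without the first 30d-7d library it was 6 of 81, 7.41% beside 5.67%. The median became 0.07 without the third 30d-7d library. In this pair 18 members did not overlap in FPKM, 23.4% beside 8.99% of all. Of these 18, 17 were higher in 30d-7d, beside 5.62% of all. Separation in TMM-scaled reads was not counted. For 30d-28d over 0d-7d, 36 of 77 were higher with a median of -0.08. At an unadjusted p under 0.05 there were 3, 3.9%, beside 5.32% of all, with 0.0% of all past the adjusted threshold. When 1 library was left out there were 1 to 5, 1.23% to 6.33%, beside 3.76% to 6.54% of all. The medians were then -0.19 to 0.07. In this pair 6 members did not overlap, beside 10.4% of all. The interaction of soil aging with exposure had 0 members and 0.0% of all past the adjusted threshold in edgeR. Of the 77 members, 10 had an unadjusted p under 0.05, beside 5.6% of all. Without the second 30d-28d library it was 5 of 80, 6.25% beside 4.15%. Without the third 0d-7d library it was 5 of 81, 6.17% beside 4.86%, and without the third 0d-28d library 6 of 81, 7.41% beside 4.64%. The highest such count was 13 of 81, beside 6.16% of all, without the second 30d-7d library. The comparisons that share a triplet are not independent of each other.

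**Figure D5:**
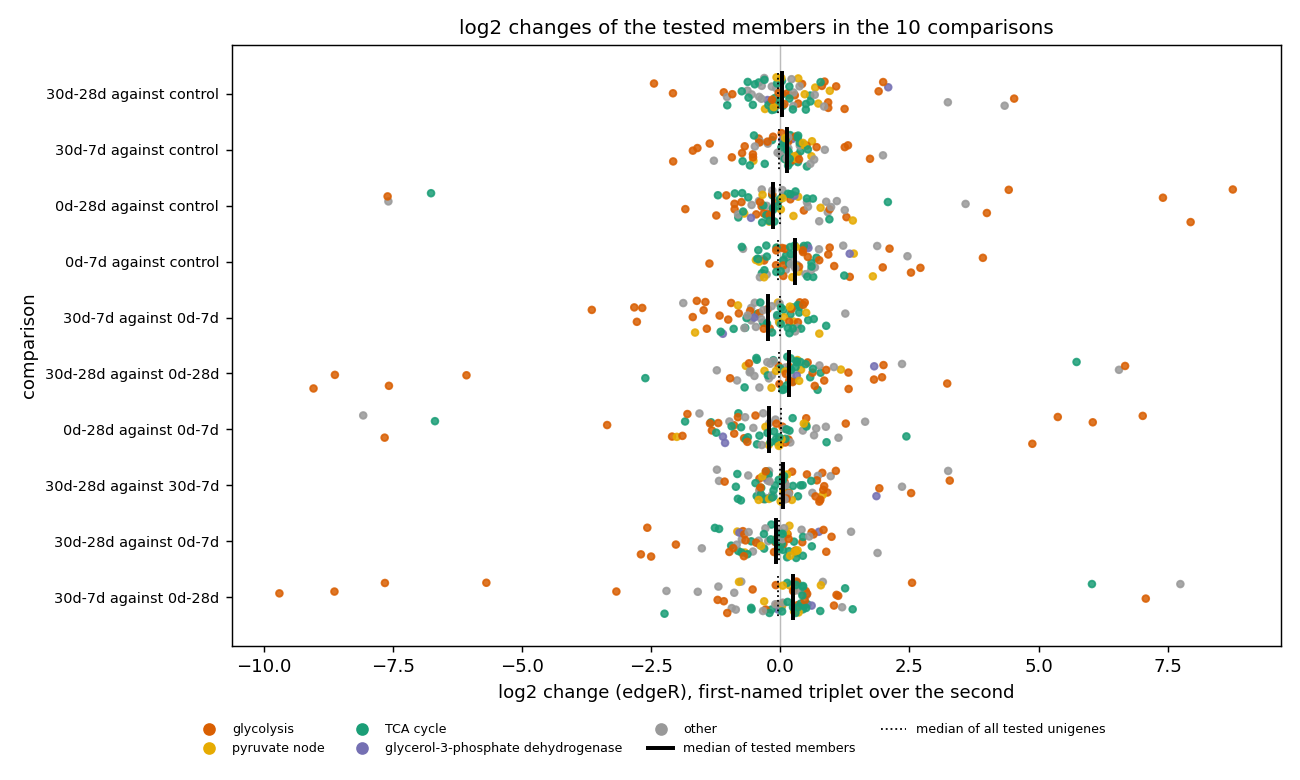
log2 change of each of the 77 tested members in the 10 comparisons, the first-named triplet over the second, with colour for the role, a thick line for the median of the members and a dotted line for that of all tested unigenes. The member medians lie between -0.25 and 0.28, and the widest points are glycolysis members in comparisons with 0d-28d.

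The rest of the glycolytic pathway, glucose-6-phosphate isomerase, phosphofructokinase, glyceraldehyde-3-phosphate dehydrogenase, lactate dehydrogenase and the enzymes of glycogen among them, was listed apart, with 28 of 48 unigenes tested and 0 past the adjusted threshold in edgeR. For 30d-28d over 0d-28d, 22 of the 28 were higher with a median log2 change of 0.99. Of the 28, 13 had an unadjusted p under 0.05, 46.4%, beside 6.29% of all. Without the second 30d-28d library it was 7 of 32, 21.9% beside 4.55%. On the muscle contractile list 56 of 77 were higher in 30d-28d with a median of 0.56. Of these 77, 12 had an unadjusted p under 0.05, beside the same 6.29% of all. For 0d-28d over 0d-7d, 8 of the 28 were higher with a median of -0.62. Of the 28, 11 had an unadjusted p under 0.05, 39.3%, beside 9.09% of all. Without the third 0d-7d library it was 3 of 30, beside 5.69% of all. On the muscle contractile list 29 of 77 were higher in 0d-28d with a median of -0.50. Of these 77, 19 had an unadjusted p under 0.05, beside the same 9.09% of all. The part of muscle in these counts was not tested. The most abundant, glyceraldehyde-3-phosphate dehydrogenase contig_33542, had 310.2, 1037 and 318.0 FPKM in 30d-28d and 56.7, 36.0 and 93.6 FPKM in 0d-28d. The 3 values of 30d-28d all lay above those of 0d-28d, as for the phosphoglycerate kinases contig_29476 and contig_25199.

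The 50 members that the filter removed held 1 to 696 reads over the 15 libraries, with a median of 7. The most reads were in contig_402293 and contig_453106, which held most of theirs in the third 0d-28d library. Fitted with no filter, 0 of the 127 members passed the adjusted threshold in edgeR, and 11 had an unadjusted p under 0.05 over the 5 triplets, 8.66%, beside 5.64% of all. For 25 of the 50, 1 library gave most of the reads, and 9 were highest in the third 0d-28d library. All 3 phosphoglycerate mutases, the step between phosphoglycerate kinase and enolase, were among them. Of the untested members 15 of 50 matched a protein of a single-celled eukaryote and 5 one of an annelid, while of the tested members it was 4 and 44 of 77.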

How the data were processed

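RNA of 15 libraries, 3 for each of 5 triplets, was sequenced, and 1 table of unigenes was deposited with all per-library columns used. Per the file headers, the authors deposited raw read counts and FPKM values side by side. How they were assembled, aligned and counted is not given in the sources used here. Matched protein names come from the same table, and no genome or sequence was used.

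Counts were tested with edgeR 4.0.16 in R 4.3.3, as quasi-likelihood F tests in 1 fit of all libraries after filterByExpr (minimum count 10, minimum total 15) and TMM scaling. The fit had 10 residual degrees of freedom. P-values are two-sided and adjusted by Benjamini-Hochberg over 101090 unigenes, with a threshold of 0.05. A standard error is the log2 change over the root of F. The code was tested on simulated data. DESeq2 1.42.0, limma 3.58.1 on log2(FPKM + 1), another size factor, no filter, a replicate block, each library left out, sums over unigenes with the same matched protein and an interaction term were alternatives, the last 2 chosen after seeing the data, as were the list and role values without a library. Nothing in the labels says whether a triplet was 3 different worms, so p-values cover the library-to-library spread alone, which may be technical.

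Members and lists were chosen with earlier results of these data known. Named members are contig_1774, the most abundant tested unigene of each enzyme class, any past the threshold and the lowest p of each test. The other named members were chosen after their values were seen. Counts over members stand beside the share of all tested unigenes.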

Additional observations from a re-analysis of the deposited data

Results flagged for a closer look

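Glycerol-3-phosphate dehydrogenase contig_1774 stands out because, by the codes, soil aging went with opposite differences at the 2 exposure times. At 28 d every 30d-28d library lay above every 0d-28d library, and at 7 d every 30d-7d library lay below every 0d-7d library. This reading needs the codes, since the treatment text gives these conditions to other triplets and calls the 0d-7d libraries unexposed. The difference between the 2 log2 changes was 2.93 ± 0.650 (SE), and its adjusted p was 0.868 in edgeR and 0.0045 in DESeq2. Without 1 library at a time it ranged from 2.54 to 3.43. The interaction was chosen after the data were seen, so its adjusted p-values are descriptive. No explanation was tested.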

How the results depend on the processing

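The count of members past the threshold was 0 in edgeR and stayed 0 with another size factor, with no filter, in limma, with sums over a matched protein and without each library in turn (0 to 0 in each comparison). DESeq2 called 2 members over the 5 triplets, 4 for 30d-28d over 0d-28d, and 1 each for 30d-28d over control, 0d-28d over control, 0d-28d over 0d-7d, 30d-28d over 30d-7d, 30d-7d over 0d-28d and the interaction, and 0 in the rest. Of all 101090 tested unigenes, DESeq2 called 1042 over the 5 triplets, 531 for 30d-28d over 0d-28d and 278 to 872 in the other tests. The cause of the difference from edgeR was not tested. A replicate block for the numbers of the libraries also gave 0 members in each test. Whether the numbers pair the libraries cannot be told from these data. Deviations from the triplet mean had a mean correlation of -0.0576 over 30 same-numbered pairs of libraries, from -0.332 to 0.320. Over 60 pairs of other numbers it was 0.0289, from -0.244 to 0.371. Subtracting the triplet means ties these averages to each other, so neither is a free reference for the other. No single library carried the change of contig_1774 for 30d-28d over control, 1.68 to 2.38, but its adjusted p ranged from 0.845 to 1.0 in edgeR. The change of contig_224109 for 0d-28d over control ranged from 3.82 to 10.002, lowest without the third 0d-28d library. Without 1 library, the member median changed sign in 4 comparisons, 30d-28d over control, 0d-28d over control, 30d-28d over 30d-7d and 30d-28d over 0d-7d. With 3 libraries a triplet and a biological coefficient of variation of 0.923, small changes were not detectable. Larger ones, such as the log2 change of 2.09 of contig_1774 for 30d-28d over control, did not pass in edgeR either. In each test edgeR called 0 or 1 of all 101090 tested unigenes, so 0 calls among members do not exclude large changes.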

Other observations

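Members whose best match is a protein of a single-celled eukaryote, or that were low throughout, were not spread evenly over the libraries. The aldolase contig_420667 had 1.22 FPKM in 30d-28d library 2, 1.80 in 30d-7d library 2, 2.69 in 0d-7d library 1, 0.735 in control library 1 and 1.98 in control library 3, and at most 0.139 FPKM elsewhere. Malate dehydrogenase contig_417654 had 0.581, 1.18, 1.88, 0.054 and 1.74 FPKM in the same libraries, and ATP-citrate synthase contig_411318 had 0.184, 0.754, 0.992, 0.169 and 0.508 FPKM. The aldolase contig_408593, which shares its match with contig_420667, was instead highest in 30d-28d library 3 with 3.05 FPKM and 0d-28d library 2 with 2.94 FPKM. ATP-citrate synthase contig_411160 was highest in the same 2 libraries, with 1.42 and 0.802 FPKM. These unigenes were chosen after their values were seen, and the organism they come from was not tested.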
